A study of Mus musculus with 14 samples.

Results

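Peritoneal cells of mice given the agent that the labels abbreviate as SMD at 300 mg/kg before lipopolysaccharide (LPS) were compared with those of mice given 200 mg/kg. The comparison took the 3 arrays titled with the higher dose and the 3 titled with the lower dose, 6 of the 14 arrays in all, and every probe set that was not a control. The remaining arrays were 3 for LPS alone, 3 for SMD at 100 mg/kg with LPS, and 2 from naive mice. Transcripts that stood higher at the middle dose than with LPS alone and then lower at the highest dose were picked out within it.

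Every mouse was a female C57Bl/6 x C3H F1 hybrid aged 12 to 16 weeks, kept 5 to a cage. Mice of all 3 dose groups received SMD on the nares under halothane 30 minutes before 60 µg of ultra-pure Salmonella minnesota LPS in PBS, given into a tail vein, and their cells were taken 2.0 h after LPS. Mice of the LPS group received the same LPS dose, and their labels state no harvest time or vehicle. The titles call the samples biological replicates without saying whether an array held RNA of 1 mouse or of several, so p-values measure the spread between these samples only. Affymetrix arrays were hybridised with labelled total RNA, and each value is a MAS5 signal, the brightness of a probe set on a linear scale after scaling of the array.

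LPS is recognised by Toll-like receptor 4 on macrophages, which signals along a MyD88 branch to NF-kB and cytokine genes, and along a TRIF branch that switches on interferon-beta. Interferon-beta binds its receptor on the same and neighbouring cells, and the receptor's kinases activate a complex with STAT2 and IRF9, which binds the interferon-stimulated response element in front of antiviral genes. Resident peritoneal macrophages are known to run this program within hours of exposure.

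The cells carried the macrophage label's defining transcripts. Adgre1 (F4/80) gave 23481, 21668 and 15879 in replicates 1 to 3 at 200 mg/kg and 23164, 25098 and 23043 at 300 mg/kg, and Lyz2, Csf1r and Cd68 were also bright. Transcripts of other peritoneal cells were bright too, among them Ms4a1 of B cells (16541, 16292 and 13211 at 200 mg/kg, 18859, 19815 and 21438 at 300 mg/kg) and Cma1 of mast cells (16070, 15562 and 14729, then 16520, 18544 and 16231). In such bulk RNA, fewer cells of a type and less RNA per cell cannot be told apart. The 3'/5' signal ratio of the actin control, a sign of RNA integrity that rises with degradation, was 14 ± 6.24 (SD, n = 3) at 300 mg/kg and 9.81 ± 0.864 at 200 mg/kg (exact permutation test, two-sided, p = 0.4, where 0.1 is the smallest p that 3 against 3 arrays allow). Log2 signals correlated at 0.928 to 0.944 within the 200 mg/kg group, 0.933 to 0.938 within the 300 mg/kg group and 0.900 to 0.937 between them. Replicate 3 of the 300 mg/kg group stood apart from the other 2 in interferon-stimulated transcripts. Some results, among them counts of calls and the changes of Usp18 and Ifit3, are also given without it.

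Of 27022 probe sets bright enough to be tested, 545 were higher at 300 than at 200 mg/kg (2.02% of those tested) and 825 were lower (3.05%), so 5.07% were called, at an adjusted p under 0.05 (limma, Benjamini-Hochberg over all 27022). With 1 probe set per gene, 348 genes rose and 511 fell. At an unadjusted p under 0.05 there were 4967 probe sets, and in 24.8% of all those tested the 3 arrays of 1 dose lay wholly beyond the 3 of the other. The median change of all probe sets was 0.045 on the log2(signal + 16) scale that is used for every change here, which makes the changes of dim transcripts look smaller than they are. The number of calls depended on which arrays entered: 381 without replicate 2 at 300 mg/kg, 492 without replicate 3 and 732 without replicate 1 at 200 mg/kg, and 1468 without replicate 3 at 300 mg/kg. Of the 116 called genes that are named, 77, 91 and 54 were called without replicates 1, 2 and 3 at 200 mg/kg, and 86, 48 and 103 without replicates 1, 2 and 3 at 300 mg/kg.

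The changes ran against the response to LPS. LPS alone raised 2773 of the tested probe sets above naive, and of these 591 (21.3%) fell between 200 and 300 mg/kg and 17 rose, with a median of -0.39. Of the 4540 that LPS lowered, 376 (8.28%) rose and 19 fell, with a median of 0.35. Among the 19709 with no call in LPS against naive, 152 rose and 215 fell. The LPS and naive arrays are not part of the dose comparison, so the axes of the plot of dose change against LPS response share no sample.

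**Figure D1:**
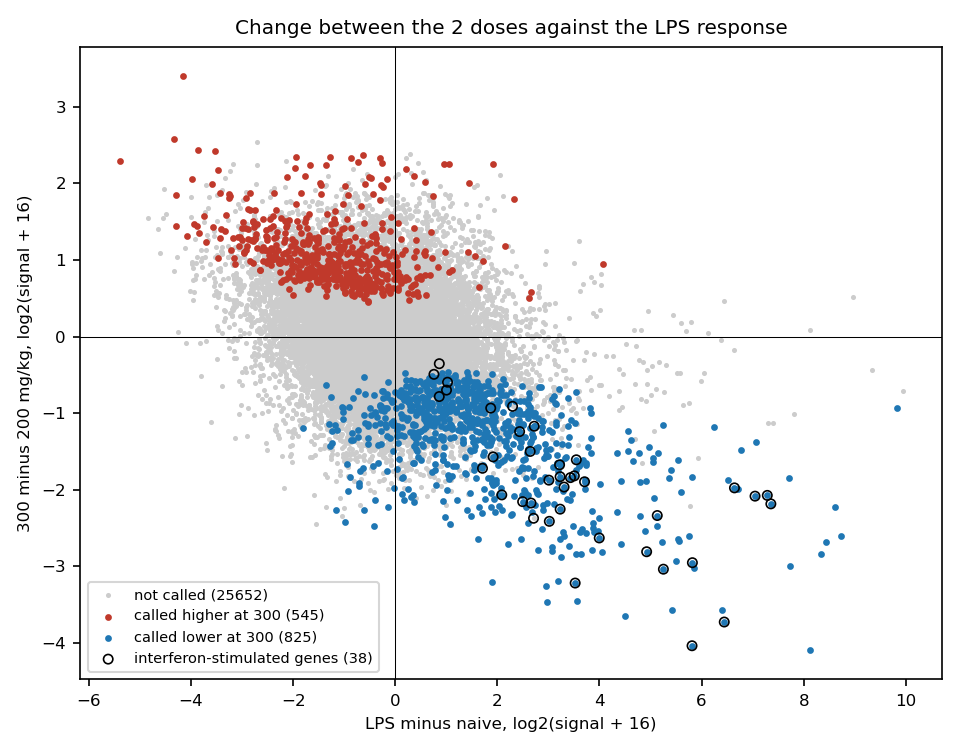
Change between 300 and 200 mg/kg (vertical) against the change from naive to LPS (horizontal), both on log2(signal + 16), 1 point per tested probe set, with called ones in red and blue and the 38 interferon-stimulated genes circled. Probe sets called lower (825) lie mainly to the right of 0 and those called higher (545) mainly to the left, and all 38 circles lie below 0.

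Interferon-stimulated genes had the lowest median change and the largest share of decreases among the 24 pathway and 10 marker lists examined. Of 43 genes listed, 38 had a uniquely named, tested probe set. Between 200 and 300 mg/kg 33 of the 38 fell, none rose, and the median change was -1.93, beside 0.045 and 3.05% called lower among all probe sets. All 38 had risen with LPS. In 37 of the 38 the 3 arrays at 300 mg/kg lay below the 3 at 200 mg/kg. Among all tested probe sets the doses did not overlap, in either direction, in 24.8%. The fall was uneven between mice or pools: replicate 2 at 300 mg/kg was the lowest of its group in 35 genes and replicate 3 the highest in 33, and the mean log2 level of the list had an SD of 1.117 at 300 mg/kg against 0.173 at 200 mg/kg. The model takes 1 spread per probe set for all groups, so errors and p-values of these genes understate the spread at 300 mg/kg. In replicates 1 and 2 at 300 mg/kg, 15 of the 38 were below both naive arrays. Replicate 3 was above both naive arrays for 29 of them.

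A sequence feature of interferon-stimulated genes was found in part of the listed ones. Because the list holds genes known to respond to interferon, the share with the feature is no result of the dose comparison. The 250 bases upstream of each RefSeq start (GRCm38.p6), without the bases after it, were searched on both strands for the core of the interferon-stimulated response element, written as GAAA, any 2 bases and GAAA again, which reads TTTC, any 2 bases and TTTC on the other strand. It occurred in 12 of the 30 listed genes with a window (40.0%), in 9.69% of the 423 genes called lower, in 4.21% of the 285 called higher and in 3.17% of the 10364 tested genes with a window. Among all 32851 windows 2.98% held it. The genes called lower include members of the list. A match describes letters only, and no binding was measured. The stretches below were taken from genes that fell and held a match. They are shown 5′ to 3′ on the gene's strand, with the matches in capitals. They are chr19:34583348-34583441 (+) for Ifit3, chr19:34640760-34640838 (+) for Ifit1, chr12:26456538-26456597 (-) for Rsad2, chr11:83020824-83020883 (-) for Slfn8 and chr5:92349068-92349127 (-) for Cxcl10.
Ifit3: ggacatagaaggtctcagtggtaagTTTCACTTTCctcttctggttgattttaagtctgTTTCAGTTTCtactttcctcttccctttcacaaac
Ifit1: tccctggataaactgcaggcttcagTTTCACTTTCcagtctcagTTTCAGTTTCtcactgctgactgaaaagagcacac
Rsad2: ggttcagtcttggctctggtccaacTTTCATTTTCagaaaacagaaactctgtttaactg
Slfn8: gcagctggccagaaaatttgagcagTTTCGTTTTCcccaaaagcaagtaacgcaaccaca
Cxcl10: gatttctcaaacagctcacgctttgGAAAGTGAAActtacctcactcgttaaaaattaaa
The first bases of the matches lie 156 and 122 bases upstream of the start in Ifit3, 104 and 85 in Ifit1, 120 in Rsad2, 48 in Slfn8 (136 from its other RefSeq start) and 213 in Cxcl10.

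Usp18, which removes ISG15 from proteins and dampens the interferon receptor, had the largest decrease of any named gene. Its signal was 13633, 13330 and 16978 at 200 mg/kg and 451, 173 and 7896 at 300 mg/kg, with 354.5 in naive cells. The change was -4.04 ± 0.775 (SE, adjusted p = 0.00541), a 16.4-fold lower level on the same scale. That error rests on 1 spread shared by all groups, and the 300 mg/kg arrays varied more than the others. With only the 6 arrays of the 2 doses in the model the adjusted p was 0.0324. The first 2 arrays at 300 mg/kg were near or below the naive level while the third stayed far above it. Without replicate 3 at 300 mg/kg the change was -5.62, and without replicate 2 it was -2.92.

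The Ifit genes, whose proteins bind foreign RNA, moved the same way. Ifit3 gave 14651, 14144 and 20597 at 200 mg/kg and 1031, 169 and 9454 at 300 mg/kg, a change of -3.73 ± 0.788 (adjusted p = 0.0096). Ifit2 changed by -2.95 (adjusted p = 0.00951) and Ifit1 by -2.19 (adjusted p = 0.0165). Ifit1bl1, a further member of the cluster, changed by -3.66 ± 0.760 (adjusted p = 0.00873). Replicate 2 at 300 mg/kg was the lowest array for each of Ifit1, Ifit2, Ifit3 and Ifit1bl1. Ifit3 changed by -5.20 without replicate 3 at 300 mg/kg and by -2.37 without replicate 2. Without replicate 3 at 200 mg/kg none of Ifit1, Ifit2, Ifit3 and Ifit1bl1 was called (adjusted p = 0.0503 to 0.0823). Ifit1 was also not called without replicate 1 at 200 mg/kg (0.0524). Without replicate 2 at 300 mg/kg neither Ifit1 (0.0658) nor Ifit1bl1 (0.0712) was called.

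GTPases that act against viruses and intracellular microbes fell with them. Mx1 gave 10642, 9147 and 13741 at 200 mg/kg and 1764, 215 and 5867 at 300 mg/kg, a change of -3.04 ± 0.662 (adjusted p = 0.0117). Iigp1, an immunity-related GTPase, gave 3305, 2852 and 3967 and then 238, 95.5 and 1638, a change of -3.22 ± 0.578 (adjusted p = 0.00368). For Mx1 and Iigp1 the groups did not overlap, as the choice of the largest decreases required. Naive cells averaged 398 for Mx1 and 772 for Iigp1. Mx1 was not called without replicate 3 at 200 mg/kg (adjusted p = 0.0647). Irgm1 (-1.90), Igtp (-1.97), Gbp2 (-1.17) and Gbp3 (-0.70) also fell. Slfn8, a Schlafen-family gene, changed by -3.25 ± 0.603 (adjusted p = 0.00443).

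Enzymes and sensors of the antiviral state made up most of the rest. Rsad2 (viperin) gave 24740, 22637 and 35237 and then 6204, 1969 and 21378, and its neighbour Cmpk2 changed by -2.81. Neither was called without replicate 1 or 3 at 200 mg/kg or without replicate 1 or 2 at 300 mg/kg (adjusted p = 0.0511 to 0.104). The oligoadenylate synthetase family members Oas1a, Oas2, Oas3, Oasl1 and Oasl2 changed by -1.50 to -2.63. The RNA sensors Dhx58 (-2.41), Ddx58 (-1.88) and Ifih1 (-1.61) and the nucleic-acid sensor Zbp1 (-1.84) fell. Ch25h, which makes 25-hydroxycholesterol, gave 1792, 1808 and 2530 and then 205, 53.6 and 990, a change of -3.03 ± 0.598 (adjusted p = 0.00656).

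Transcripts of transcription factors that act in the interferon response were lower as well. Whether they had a part in the other decreases was not tested. Stat2, a subunit of the complex that binds the response element, gave 722, 854 and 800 at 200 mg/kg and 228, 128 and 186 at 300 mg/kg, a change of -2.07 ± 0.323 (adjusted p = 0.00216). All 3 arrays at 300 mg/kg, replicate 3 included, were below every naive and LPS array for Stat2. Irf7, which amplifies interferon transcription, gave 1255, 1010 and 1341 and then 377, 126 and 706 (-1.82 ± 0.473, adjusted p = 0.0314). With 1 dose array left out Irf7 was called only without replicate 3 at 300 mg/kg (adjusted p = 0.00442, otherwise 0.0572 to 0.211). Members that did not pass were Irf1 (-0.36), Irf8 (-0.49), Psmb9 (-0.60, adjusted p = 0.123), Bst2 (-0.91, adjusted p = 0.0727) and Znfx1 (-2.37, adjusted p = 0.0602).

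Single arrays decided how many members passed. The count of falling interferon-stimulated genes was 21 of 38 without replicate 2 at 300 mg/kg, 21 without replicate 3 at 200 mg/kg and 34 without replicate 3 at 300 mg/kg. With robust variance estimation 22 passed and Usp18 did not (adjusted p = 0.0677).

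**Figure D2:**
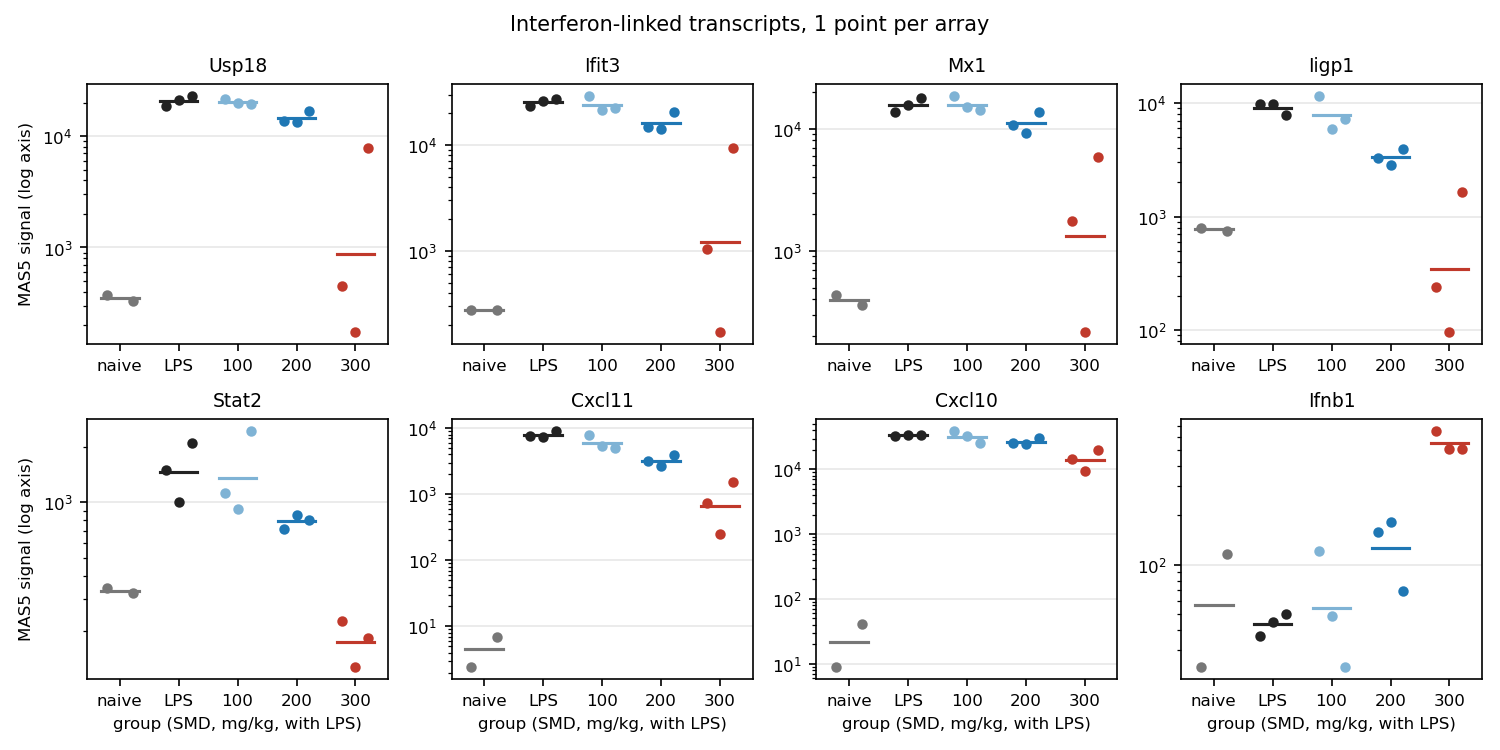
MAS5 signal on a log axis for 8 interferon-linked transcripts, 1 point per array and a bar at the mean of log2(signal + 16) of each group (naive n = 2, other groups n = 3). Usp18, Ifit3, Mx1 and Iigp1 drop at 300 mg/kg with 1 array well above the other 2, Stat2 drops in all 3, and Ifnb1 is highest at 300 mg/kg.

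The transcript of interferon-beta itself moved the opposite way. Ifnb1 gave 158, 181 and 69.3 at 200 mg/kg and 652, 505 and 505 at 300 mg/kg. With LPS alone it gave 36.9, 44.8 and 50.2, and in naive cells 23.8 and 115.7. Its change between the doses was 1.98 ± 0.513 (adjusted p = 0.0308), a 3.95-fold higher level, and the arrays did not overlap. It was not called without replicate 1 (adjusted p = 0.0646) or replicate 3 (0.159) at 200 mg/kg, or without replicate 1 (0.1), 2 (0.116) or 3 (0.0572) at 300 mg/kg. It also missed the threshold with a pseudocount of 1 (adjusted p = 0.0745) and with array weights (0.051). The signal was modest throughout, against an average of 24210 for Il6 at 300 mg/kg. Ifnb1 was not called in LPS alone against naive (-0.28, adjusted p = 0.776, limma).

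Chemokines that interferon induces fell, and the others did not pass. Of 22 chemokine genes 4 fell and none rose, with a list median of -0.15, beside 3.05% called lower among all probe sets. Cxcl11, a ligand of CXCR3, gave 3172, 2649 and 3865 and then 749, 252 and 1547, a change of -2.23 ± 0.399 (adjusted p = 0.00366). Cxcl9, a further CXCR3 ligand, changed by -2.47 ± 0.495 (adjusted p = 0.00704), though its dimmer probe set changed by 0.21 without passing. Ccl5, which attracts T cells and monocytes, gave 14617, 14745 and 17346 and then 5852, 2078 and 9957 (-1.65 ± 0.336, adjusted p = 0.0079). Cxcl10 gave 25249, 25081 and 30627 and then 14587, 9485 and 20055 (-0.93 ± 0.261, adjusted p = 0.0449). The groups did not overlap for any of these ligands. Cxcl10 was the least firm: its adjusted p was 0.278 without replicate 2 at 300 mg/kg, 0.176 without replicate 3 at 200 mg/kg and 0.163 with a pseudocount of 1.

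Among 19 cytokine genes 3 fell and 1, Ifnb1, rose, with a median of -0.12, beside 3.05% and 2.02% of all probe sets. Il15, which supports natural killer and memory T cells, gave 1808, 1586 and 3129 and then 219, 289 and 1342, a change of -2.19 ± 0.441 (adjusted p = 0.00738). Tnfsf10 (TRAIL), a death-receptor ligand, gave 350, 543 and 1021 and then 104, 6.2 and 343 (-2.60 ± 0.654, adjusted p = 0.027). In both genes the highest array at 300 mg/kg, replicate 3, came closest to the 200 mg/kg range. Tnfsf9 (4-1BB ligand) also fell and is described with the transcripts that rose at 200 mg/kg against LPS alone and then fell. Without replicate 3 at 200 mg/kg or replicate 2 at 300 mg/kg, 1 of the 3 decreases was still called.

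The classical mediators of the LPS response did not pass between these doses. Il6 gave 15600, 15491 and 13388 at 200 mg/kg and 21677, 26130 and 24816 at 300 mg/kg, a change of 0.71 ± 0.308 (adjusted p = 0.222) although the arrays did not overlap. It passed with only the 6 arrays in the model (adjusted p = 0.0145) and without replicate 3 of the 100 mg/kg group (0.00683). Tnf gave 2102, 2332 and 1869 and then 1873, 1011 and 956 (-0.77 ± 0.283, adjusted p = 0.136), and replicate 1 at 300 mg/kg lay within the 200 mg/kg range. Without replicate 1 at 300 mg/kg Tnf (adjusted p = 0.0425) and Il1b (0.0467) were called lower.

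For Il1b the change was -0.58 ± 0.206 (adjusted p = 0.121), for Il10 0.69 ± 0.275 (0.176), for Ptgs2 0.47 ± 0.271 (0.388), for Cd14 -0.17 ± 0.103 (0.419) and for Tlr4 -0.79 ± 0.394 (0.3). Il12b (-0.10 ± 0.605, adjusted p = 0.955) and Hmox1 (-0.07 ± 0.364, 0.951) overlapped widely, and Nos2 was too dim to test. Tlr4 was called lower only with the actin ratio as a covariate (adjusted p = 0.029). A p above the threshold does not show that the levels were alike.

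Genes of other LPS-induced programs fell beside the interferon-stimulated ones. Lcn2 (lipocalin 2), which withholds iron from bacteria, gave 9393, 9060 and 7498 at 200 mg/kg and 2302, 1672 and 3519 at 300 mg/kg, a change of -1.84 ± 0.222 (adjusted p = 0.00141). Cebpd, a transcription factor of the acute-phase response, gave 5494, 5263 and 5883 and then 1901, 1075 and 2632 (-1.65 ± 0.232, adjusted p = 0.00157). Ptx3, a soluble pattern-recognition protein, changed by -2.64 ± 0.458 (adjusted p = 0.00299). The groups were well apart in each of these, and replicate 3 at 300 mg/kg was again the highest of its group. Lcn2 and Ptx3 are 2 of the 3 antimicrobial effectors that fell among 18, the other being Hp (haptoglobin, -0.99). Of all probe sets 3.05% were called lower.

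Among genes of glucose use Pfkfb3 and Hk2 fell and Hk1 rose. Pfkfb3, which makes the activator of phosphofructokinase, gave 12787, 11389 and 12248 and then 3291, 1810 and 5785, a change of -1.89 ± 0.260 (adjusted p = 0.00143). Hk2, the inducible hexokinase, gave 10708, 10519 and 11581 and then 4066, 3469 and 6932 (-1.24 ± 0.202, adjusted p = 0.00235), whereas Hk1, the hexokinase of resting cells, rose by 0.74 (adjusted p = 0.0282). Of the 22 glycolysis and hypoxia genes 3 fell and 1 rose, with a median of 0.13, beside 3.05% and 2.02% of all probe sets. Most glycolytic genes therefore did not pass, and the decreases were those of Pfkfb3, Hk2 and Adm.

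Negative regulators of Toll-like receptor signalling went both ways. Irak3, an inhibitory IRAK kinase, gave 7524, 6587 and 7614 and then 3941, 1993 and 4245 (-1.16 ± 0.214, adjusted p = 0.00432). Il1rn, the interleukin-1 receptor antagonist, changed by -1.38 ± 0.299 (adjusted p = 0.0116), and Tnip1, a partner of A20, by -0.66 ± 0.137 (adjusted p = 0.0085). Zfp36 and Zfp36l1, which destabilise cytokine mRNA, rose by 0.51 (adjusted p = 0.0433) and 0.59 (adjusted p = 0.0468). The anti-inflammatory list of 17 thus held 3 decreases and 2 increases with a median of 0.19, beside 3.05% and 2.02% of all probe sets. Neither increase was called without replicate 1, 2 or 3 of the 200 mg/kg group or without replicate 2 or 3 of the 300 mg/kg group, with adjusted p-values of 0.0504 to 0.233.

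Along the receptor pathway itself Myd88, the adaptor of Toll-like receptors, was the only one of 20 members called, with 7399, 7170 and 7442 at 200 mg/kg and 5524, 3759 and 4132 at 300 mg/kg (-0.73 ± 0.197, adjusted p = 0.0377). In the NF-kB list of 14, Tnip2 (-1.42, adjusted p = 0.00368) and Tnip1 fell and Nfkbiz, a nuclear co-regulator, rose by 0.58 (adjusted p = 0.0289). Cd40 (-0.98) and Cd274 (PD-L1, -1.07) fell among 19 antigen-presentation and costimulation genes. Among all probe sets 3.05% were called lower and 2.02% higher. The call for Myd88 ended without any of 5 single dose arrays (adjusted p up to 0.205) and that for Nfkbiz without 4.

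**Figure D3:**
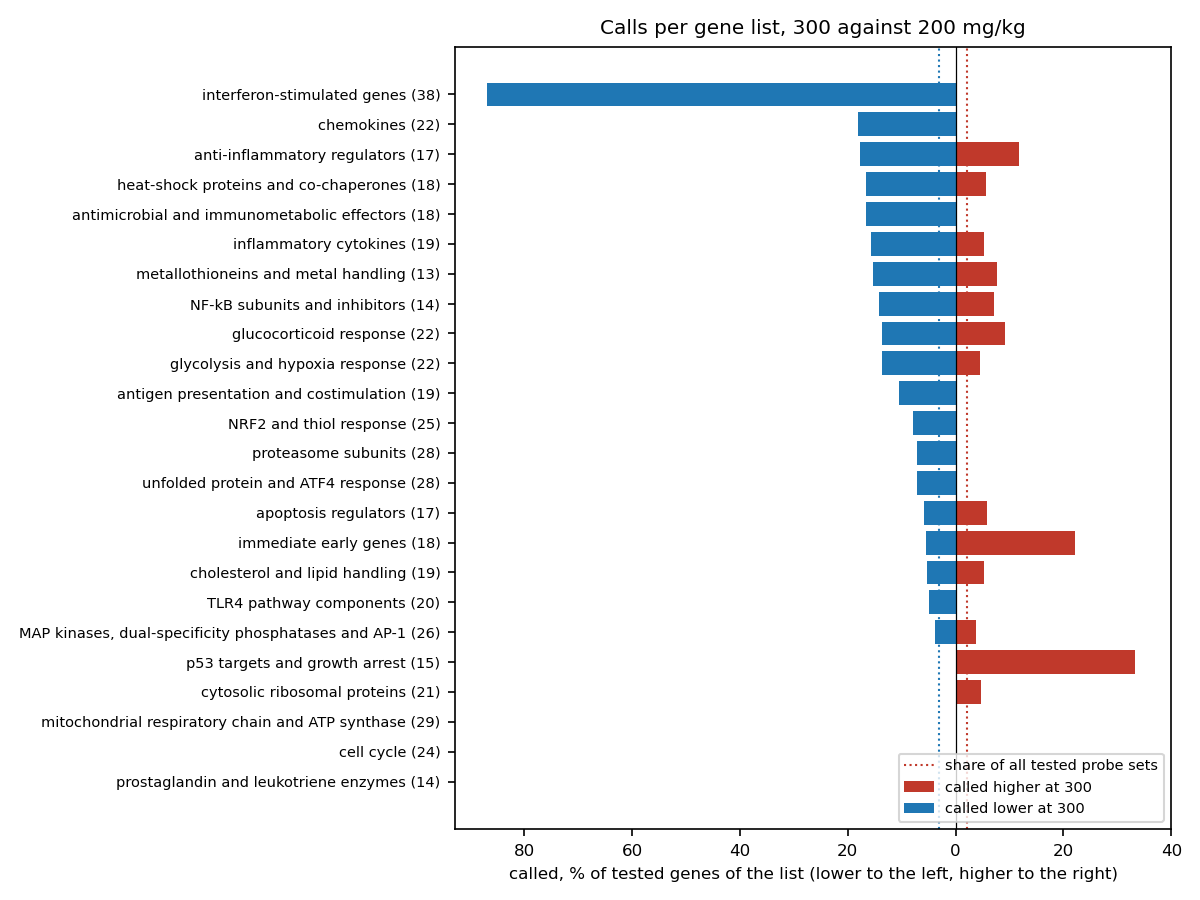
Share of the tested genes of each of the 24 pathway lists called lower (blue, to the left) or higher (red, to the right) at 300 against 200 mg/kg, with the number tested in brackets and dotted lines at the shares of all probe sets (3.05% lower, 2.02% higher). The interferon-stimulated list stands out to the left, with 33 of 38, and the p53 and immediate early lists reach furthest to the right, with 5 of 15 and 4 of 18.

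The transcripts that rose included genes tied to growth arrest. Of 15 p53 targets and growth-arrest genes 5 rose and none fell, with a median of 0.43, beside 2.02% called higher among all probe sets. Gadd45a, a stress-induced inhibitor of cell-cycle progression, gave 3846, 3804 and 2252 at 200 mg/kg and 6846, 9993 and 7568 at 300 mg/kg, a change of 1.32 ± 0.302 (adjusted p = 0.0163). Sesn1, a p53 target that restrains mTORC1, gave 2454, 2492 and 1605 and then 3955, 6530 and 5238 (1.25 ± 0.208, adjusted p = 0.0025). Tob1, an antiproliferative partner of the deadenylase complex, gave 591, 559 and 474 and then 1319, 2152 and 1138 (1.43 ± 0.249, adjusted p = 0.00308). None of these overlapped between doses.

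Cdkn1a (p21), the cyclin-dependent kinase inhibitor, rose by 0.98 (adjusted p = 0.0337) and Mdm2, which degrades p53, by 0.61 (adjusted p = 0.0418). Pmaip1 (Noxa), a pro-death BH3 protein and further p53 target, rose by 1.10 (adjusted p = 0.0155). Of the 24 cell-cycle genes none was called, with a median of 0.11. Mdm2 was not called without any 1 of the 6 dose arrays (adjusted p = 0.0537 to 0.16), and Cdkn1a was called only without replicate 3 at 300 mg/kg (0.0311, otherwise 0.0698 to 0.193). Of the p53 list's 5 increases 2 passed without replicate 3 at 200 mg/kg and 2 without replicate 2 at 300 mg/kg.

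Among 18 immediate early genes 4 rose and 1 fell, with a median of 0.12, beside 2.02% and 3.05% of all probe sets. Klf6, a zinc-finger factor of the early response, shared with Lcn2 the smallest adjusted p of the comparison. It gave 4876, 4879 and 3569 at 200 mg/kg and 10551, 10063 and 8878 at 300 mg/kg, a change of 1.16 ± 0.158 (adjusted p = 0.00141). Klf6 was called in every model that left out 1 of the 6 dose arrays. Klf4, a factor of monocyte and macrophage differentiation, gave 1593, 1890 and 647 and then 2503, 5028 and 3463 (1.48 ± 0.317, adjusted p = 0.0105). Egr1 (0.84) and Id2 (0.62) rose, and Myc fell by 0.82 (adjusted p = 0.0135). Without replicate 3 at 200 mg/kg 1 of the 4 increases was called, and without replicate 2 at 300 mg/kg again 1.

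The largest increases belonged mostly to transcripts that LPS had lowered. Marveld1, a MARVEL-domain membrane protein, gave 874, 795 and 215 at 200 mg/kg and 3205, 3356 and 1795 at 300 mg/kg, a change of 2.29 ± 0.426 (adjusted p = 0.00443), beside 135 on average with LPS alone and 6224 in naive cells. Nrp1 (neuropilin 1), a semaphorin and growth-factor co-receptor, gave 553, 601 and 508 and then 1612, 2793 and 1706 (1.81 ± 0.285, adjusted p = 0.00216), beside 2452 in naive cells. Bmp2, a bone morphogenetic protein, gave 408, 467 and 324 and then 1020, 2210 and 1411 (1.86 ± 0.301, adjusted p = 0.00232). The 300 mg/kg arrays lay above all 200 mg/kg arrays in each case, as the choice of the largest increases required. Only 1 of 3 tested probe sets of Marveld1 and 1 of 4 of Nrp1 were called, and the smallest changes were 0.28 and 0.47.

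Further increases were those of Kank2 (2.00), an actin regulator, Tcim (1.87), Asz1 (1.80), 1810046K07Rik (1.73) and Fam117a (1.73), and of the dim transcripts Rab7b (2.17), a small GTPase of lysosomal trafficking, Lonrf3 (2.08) and Nfe2 (1.87). The other probe set of Asz1 changed by 0.22 without passing. For Rab7b, Lonrf3 and Nfe2, replicate 3 at 200 mg/kg was at 14, 12.4 and 10.1, far below the 2 other arrays of its group. Of the 12 largest increases 5 were called without replicate 3 at 200 mg/kg and 5 without replicate 2 at 300 mg/kg. Of the 12 largest decreases 8 and 11 were.

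**Figure D4:**
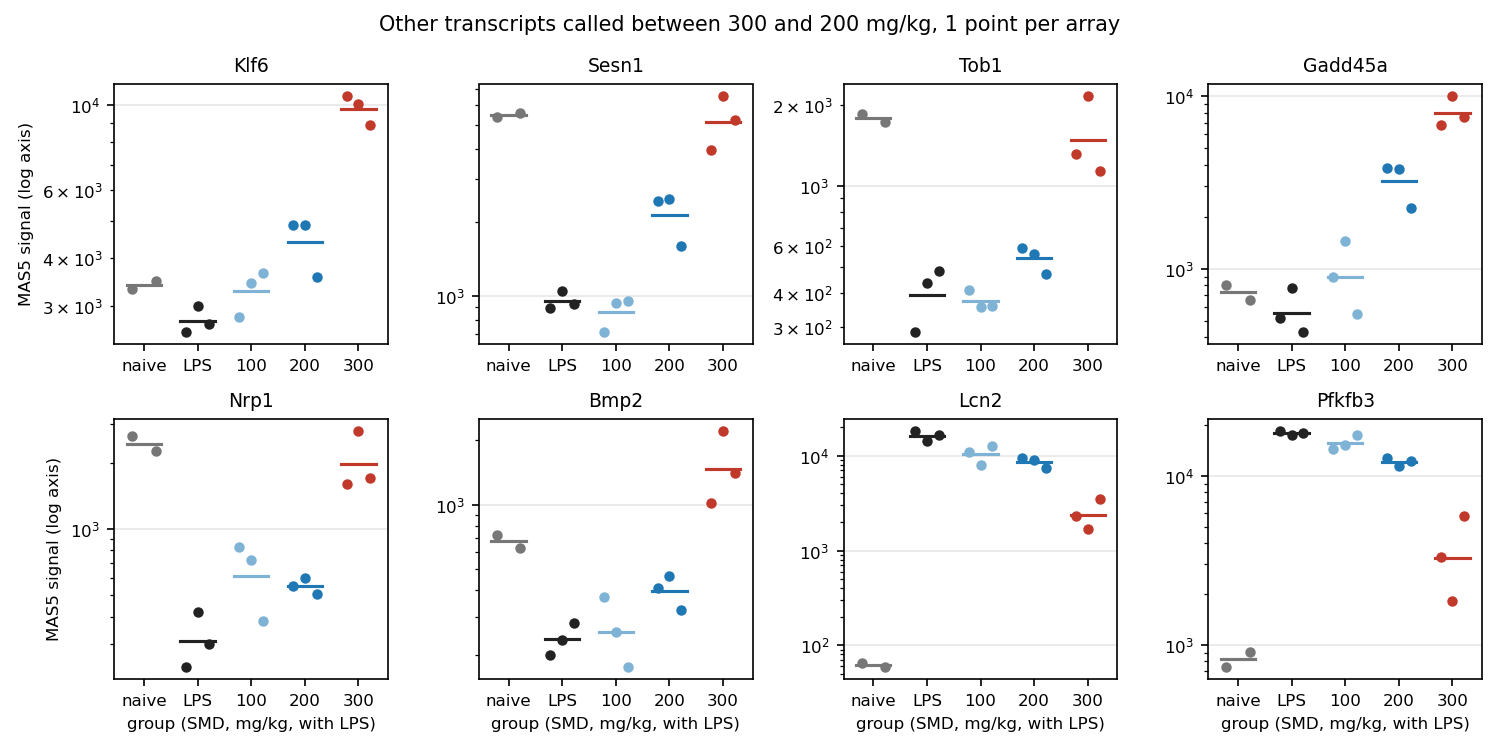
MAS5 signal on a log axis for 8 other transcripts called between the doses, 1 point per array and a bar at the mean of log2(signal + 16) of each group (naive n = 2, other groups n = 3). Klf6, Sesn1, Tob1, Gadd45a, Nrp1 and Bmp2 are higher in all 3 arrays at 300 mg/kg than in any at 200 mg/kg, and Lcn2 and Pfkfb3 are lower.

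Decreases among the largest that lie outside the interferon list were those of Itgb8, Lipg, Shisa3 and Hspb1. Lipg, endothelial lipase, gave 3642, 3104 and 4940 at 200 mg/kg and 133, 133 and 1500 at 300 mg/kg, a change of -3.57 ± 0.557 (adjusted p = 0.00216). Itgb8, an integrin chain that activates TGF-beta, gave 633, 660 and 1024 and then 18.7, 7.5 and 313 (-3.58 ± 0.619, adjusted p = 0.00299). Shisa3 gave 254, 219 and 165 and then 1.9, 1.6 and 32 (-3.19 ± 0.507, adjusted p = 0.00222). Lipg, Itgb8 and Shisa3 showed the order seen in the interferon-stimulated genes, with replicate 3 the highest of its group at 300 mg/kg. Signals of Shisa3 and Itgb8 at 300 mg/kg were partly or wholly under 33.9, the lowest mean level tested, so the size of their change depends on the pseudocount: with 1 and 64 in place of 16 it was -5.06 and -1.88 for Shisa3 and -4.33 and -2.65 for Itgb8.

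Rising at the middle dose and falling at the highest was rare. A transcript was counted when it was called higher at 200 mg/kg than with LPS alone (6.68% of probe sets were, and 6.39% were called lower) and called lower at 300 than at 200 mg/kg. The count was 17 probe sets (0.0629%), which stand for 12 named genes and 3 probe sets without a unique name. The mirror pattern, lower at 200 mg/kg and then higher, held for 30 probe sets (0.111%), or 25 named genes and 5 unnamed probe sets. Both steps use the 200 mg/kg arrays, so an extreme value in that group alone adds to both counts, and the counts are given as a description. The actin 3'/5' ratio moved with the first of these steps, from 1.92, 5.86 and 2.17 with LPS alone to 9.66, 9.03 and 10.7 at 200 mg/kg, with no overlap. With that ratio as a covariate the counts were 6 and 2. Against LPS alone, 13.8% of probe sets were called higher and 13.7% lower at 300 mg/kg. None of the 17 and none of the 30 were, which the choice of opposite steps largely fixes.

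Heat-shock genes led the transcripts that rose at 200 mg/kg against LPS alone and fell at 300 mg/kg. Hspb1 (Hsp27), a small chaperone that holds unfolded proteins, gave 526, 529 and 686 with LPS alone, 1088, 4278 and 801 at 100 mg/kg, 4578, 3451 and 9709 at 200 mg/kg and 826, 429 and 510 at 300 mg/kg. It stood 3.18 ± 0.458 above LPS at 200 mg/kg (adjusted p = 0.0005) and fell by 3.21 ± 0.458 from 200 to 300 mg/kg (adjusted p = 0.00165). All 3 arrays at 200 mg/kg exceeded every LPS and 300 mg/kg array, as the rule for naming such genes required. Its second probe set rose by 3.20 and fell by 3.47. Hspb1 was called lower at 300 mg/kg in every model that left out 1 of the 6 dose arrays.

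Hsph1 (Hsp110), a nucleotide exchange factor of Hsp70, gave 5686, 4306 and 11535 at 200 mg/kg and 3234, 1855 and 2536 at 300 mg/kg, and both of its probe sets met the 2 conditions. The brighter probe set rose by 1.72 against LPS and fell by 1.40 ± 0.310 (adjusted p = 0.0132). A probe set of Hsp90aa1, the inducible Hsp90, gave 17661, 14641 and 15628 and then 9836, 5946 and 8764 (-0.99 ± 0.215, adjusted p = 0.0114), although the gene's brightest probe set did not meet both conditions. Replicate 3 at 200 mg/kg was the highest array for Hspb1 and Hsph1 but not for Hsp90aa1. Hsph1 was not called without it (adjusted p = 0.0856) or without replicate 2 at 300 mg/kg (0.101).

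Not all chaperones followed. The Hsp70 genes Hspa1a and Hspa1b, near-identical copies whose probe sets can share signal, changed by 0.92 ± 0.446 (adjusted p = 0.281) and 0.55 ± 0.361 (adjusted p = 0.458). For Hspa1b the arrays were at 6518, 4456 and 16226 at 200 mg/kg and 9183, 16156 and 9935 at 300 mg/kg, so the doses overlapped. Dnajb4, an Hsp40 co-chaperone, rose from 1675, 1722 and 1590 to 3250, 3591 and 3054 (0.98 ± 0.269, adjusted p = 0.0418), though it was not called without any 1 of the 6 dose arrays (adjusted p = 0.0618 to 0.184). Hspd1, the mitochondrial chaperonin, fell by 0.97 ± 0.151 (adjusted p = 0.00216). In the list of 18 heat-shock proteins and co-chaperones 3 fell and 1 rose, with a median of -0.22. Of all probe sets 3.05% were called lower and 2.02% higher.

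The other genes that rose and fell had varied roles. Adm (adrenomedullin), a vasodilator peptide, gave 4172, 5302 and 3970 with LPS alone, 10780, 13133 and 16598 at 200 mg/kg and 4574, 5271 and 9205 at 300 mg/kg (-1.13 ± 0.264 between the doses, adjusted p = 0.018). Tnfsf9, a costimulatory ligand for T cells, gave 2382, 2516 and 1755, then 4623, 4388 and 3869, then 1820, 1718 and 2125 (-1.18 ± 0.232, adjusted p = 0.00643). At 100 mg/kg, a dose that the rule did not use, Adm gave 13514, 15495 and 7570 and Tnfsf9 gave 5023, 5578 and 3346. Neither passed at 100 mg/kg against LPS alone (Adm 1.39, adjusted p = 0.193, and Tnfsf9 1.05, adjusted p = 0.267).

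Spata13 gave 3936, 4418 and 4152 at 200 mg/kg and 1775, 1834 and 2682 at 300 mg/kg (-1.01 ± 0.171, adjusted p = 0.00276). Tet2, which oxidises 5-methylcytosine, fell by 0.97 (adjusted p = 0.0064), Gabpb1, a subunit of an Ets-family factor, by 0.69 (adjusted p = 0.0242), and Lcp2 (SLP-76), a signalling adaptor, by 0.65 (adjusted p = 0.011). Gsr, glutathione reductase, gave 9249, 10126 and 8734 and then 6813, 4855 and 7292, a smaller change of -0.59 ± 0.156 (adjusted p = 0.0347). For Zfp644 and Tpd52 the probe set that met both conditions was not the gene's brightest. In all 17 probe sets the 200 mg/kg arrays lay above all LPS and all 300 mg/kg arrays. Choosing probe sets that were called in both steps on these same arrays largely fixes that. Among all tested probe sets the 200 and 300 mg/kg arrays did not overlap, in either direction, in 24.8%.

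A search of the same promoter windows for the heat-shock element, written as GAA, any 2 bases, TTC, any 2 bases and GAA (on the other strand TTC, any 2 bases, GAA, any 2 bases and TTC), found it in none of the 8 rise-and-fall genes with a window. It was held by 0.47% of all windows. That says only that these letters are not in those bases.

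**Figure D5:**
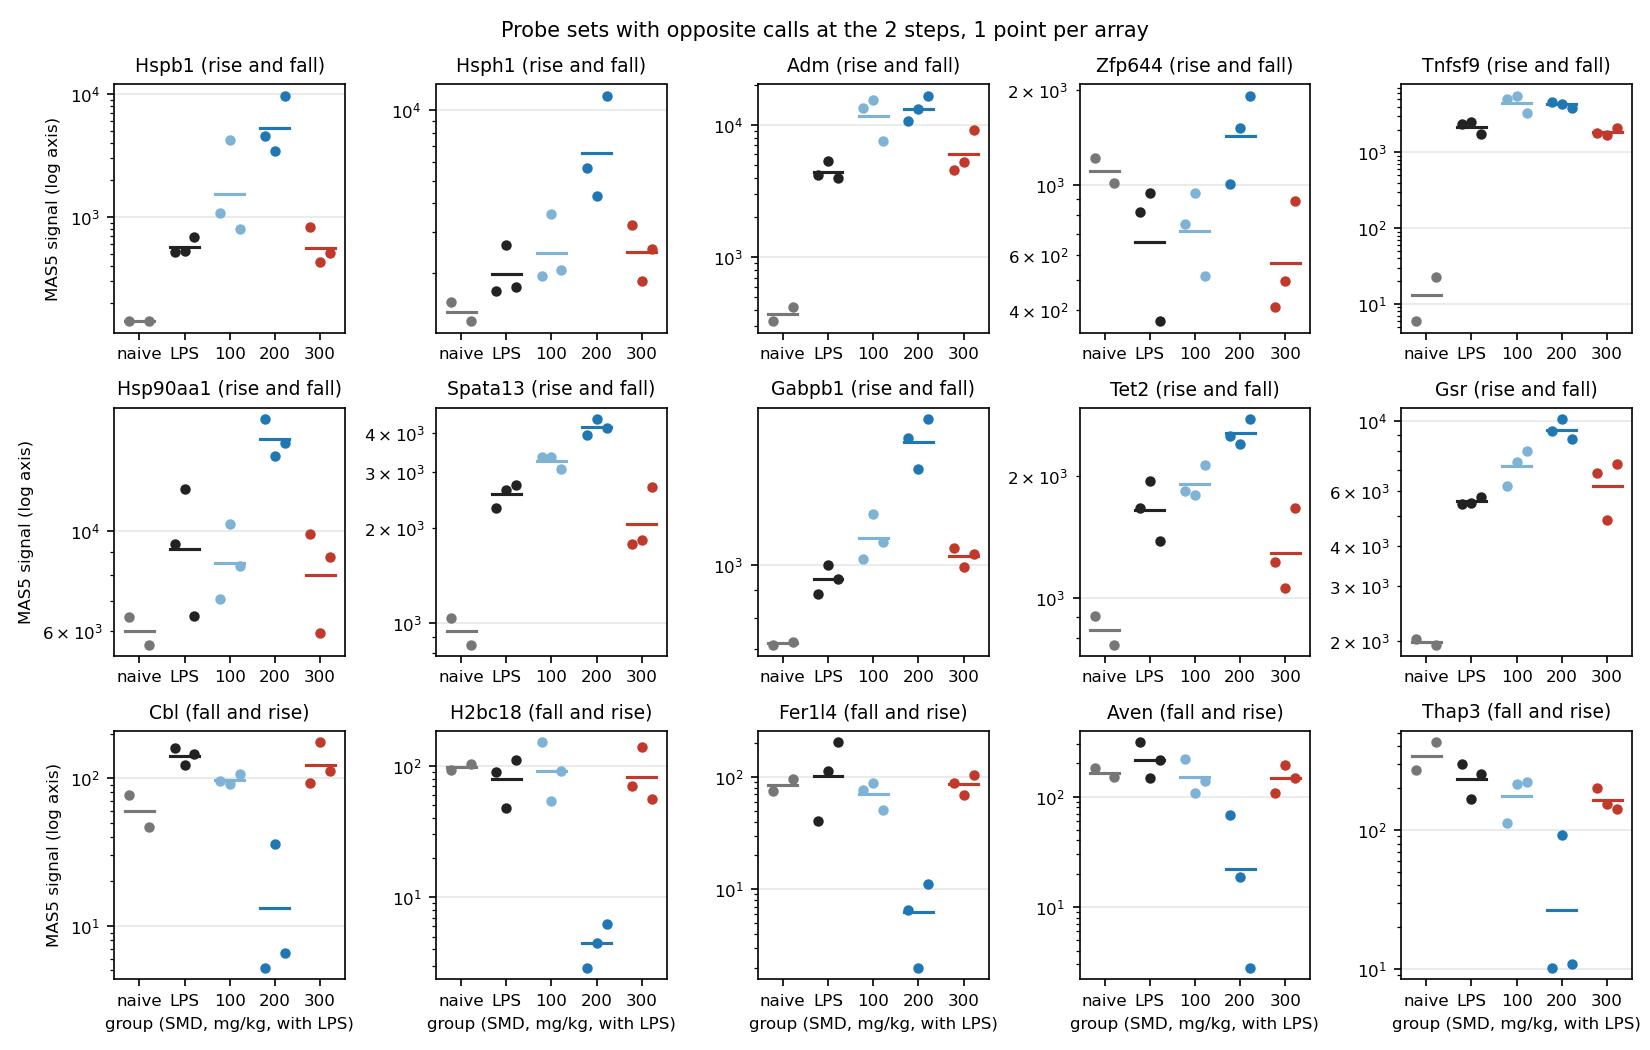
MAS5 signal on a log axis for 10 probe sets that rose at 200 mg/kg against LPS and fell at 300 mg/kg (upper panels) and 5 that did the reverse (bottom panels), 1 point per array and a bar at the mean of log2(signal + 16) of each group (naive n = 2, other groups n = 3). The upper probe sets have far higher signals, with Hspb1 showing the widest swing, while the bottom ones drop to signals under 100 at 200 mg/kg.

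The mirror pattern included many dim transcripts. In 11 of the 30 probe sets the mean signal at 200 mg/kg was under 33.9, the level below which probe sets were left out of testing, and a low level there is part of how they were chosen. H2bc18, a histone H2B gene, gave 89.7, 47.4 and 111 with LPS alone, 2.9, 4.5 and 6.2 at 200 mg/kg and 69.9, 140 and 55.6 at 300 mg/kg (2.27 ± 0.519, adjusted p = 0.0165). The size of the change for H2bc18 was 3.94 with a pseudocount of 1 and 1.11 with 64. Cbl, a ubiquitin ligase of receptor signalling, gave 5.2, 36 and 6.6 at 200 mg/kg and 92.6, 175 and 112 at 300 mg/kg, but from a probe set that is not the gene's brightest. Signals of this size are near the bottom of the array's range, and Fer1l4, Aven and Thap3 behaved likewise.

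The mirror pattern also held brighter transcripts. C3ar1, the receptor for complement C3a, rose by 1.61 ± 0.280 (adjusted p = 0.00308) after a change of -0.91 at 200 mg/kg against LPS. Zfp36 rose by 0.51 after -0.49. C3ar1 was picked from the list of 30 after its values were seen.

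The contrast that sets 200 mg/kg against the mean of LPS alone and 300 mg/kg called 1 probe set of 27022 by limma, that of Hspb1 (3.19 ± 0.397, adjusted p = 0.00585), and 3482 had an unadjusted p under 0.05. The number called varied with the settings, from 0 with robust variance estimation to 215 with array weights and 219 without replicate 3 at 300 mg/kg. The count of 17 ranged from 4 to 37 over the models that left out 1 array and the count of 30 from 4 to 40.

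Of 25 genes of the NRF2 and thiol response 2 fell and none rose, beside 3.05% called lower among all probe sets, with a median of -0.05. They were Nfe2l2 (NRF2 itself), with 9178, 9336 and 11673 and then 6016, 6749 and 7441 (-0.57 ± 0.149, adjusted p = 0.0308), and Gsr. A dimmer probe set of Nfe2l2 changed by 0.92 without passing. Neither Nfe2l2 nor Gsr was called without replicate 1, 2 or 3 at 200 mg/kg or without replicate 2 at 300 mg/kg. Of 28 genes of the unfolded protein and ATF4 response Asns (asparagine synthetase, -1.56) and Psat1 (-0.80) fell, and of 13 metal-handling genes Slc39a14 (-1.45), a zinc and iron importer, and Mtf1 (-0.81) fell while Atp7a, a copper exporter, rose by 0.94.

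In the glucocorticoid-response list of 22, Sgk1 rose by 0.92 (adjusted p = 0.00641) with Klf4, and Lcn2, Cebpd and Nr3c1, the glucocorticoid receptor (-0.65, adjusted p = 0.022), fell. Maff rose (0.94) and Map2k4 fell (-0.95) among 26 MAP kinase and AP-1 genes. Of 28 proteasome subunits Psma4 (-0.56) and Psmd1 (-0.74) fell, with a median of -0.21. No proteasome gene was called without replicate 1 or 2 at 200 mg/kg or without replicate 2 at 300 mg/kg. Of 17 apoptosis genes Casp8 fell by 0.59 and Pmaip1 rose. Scd2, a fatty-acid desaturase, rose by 1.27 (adjusted p = 0.0341) among 19 lipid genes and Rpl37 by 0.75 among 21 ribosomal proteins. Among all probe sets 3.05% were called lower and 2.02% higher. Counts of 1 or 2 members are not read as results about their lists. Called members were none of 29 respiratory-chain genes (median 0.06) and none of 14 prostaglandin and leukotriene enzymes (median 0.21).

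Some markers of the cells in the samples changed too, beside 3.05% called lower and 2.02% higher among all probe sets. Of 25 resident macrophage markers Fcgr1 fell (-2.14 ± 0.321, adjusted p = 0.00205) and Tgfb2 rose (1.47 ± 0.340, adjusted p = 0.0171), and the summed signal of the list was 376100 to 414800 at 200 mg/kg and 383800 to 411600 at 300 mg/kg. Fcgr1, the high-affinity IgG receptor, gave 1621, 1402 and 1894 and then 202, 291 and 763, and had been raised by LPS. The 15 B cell markers summed to 69870 to 81110 at 200 mg/kg and 89180 to 103700 at 300 mg/kg, ranges that do not overlap. Of the 15, 14 were higher at 300 mg/kg by their group means (median 0.39), although Fcrla (0.77) was the only one called. With 1 dose array left out Fcrla was called only without replicate 3 at 200 mg/kg (adjusted p = 0.0226, otherwise 0.0544 to 0.133). The part of B cells in the increases was not tested.

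Of 13 neutrophil markers Lcn2 alone was called, lower, and S100a8 gave 14488, 15170 and 15743 and then 25299, 21942 and 21437 (0.59 ± 0.196, adjusted p = 0.0934). The neutrophil sums were 72700 to 77390 at 200 mg/kg and 74840 to 84940 at 300 mg/kg. Of 12 mast cell markers Hdc (-0.69), Tph1 (-0.81) and Fcer1a (-0.66) fell and Mrgprb1 rose (0.98), beside 5.07% called among all probe sets, with sums of 55370 to 59580 and 56580 to 60610. None of these mast cell markers was called without replicate 3 at 200 mg/kg or without replicate 2 at 300 mg/kg. Of 17 T and NK cell markers Gzmb (granzyme B) fell by 1.52 ± 0.305 (adjusted p = 0.00701), with sums of 10100 to 11810 and 11440 to 11840. The part of these cells in the changes was not tested. Eosinophil (3 tested), monocyte and dendritic cell (8), mesothelial and fibroblast (9), red cell (3) and platelet (9) markers gave no call. The 3 red cell markers summed to at most 268 and 149 at the lower and the higher dose.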

How the data were processed

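The authors deposited 1 linear intensity for each probe set. The submitters' processing notes name MAS5, with a version not given here or in other sources used. In the deposited values the mean after trimming 2% at each end was about 500 on every array, so changes are relative to the rest of the array. Of 45101 probe sets, 64 controls were left out, and 34945 of the other 45037 had 1 gene symbol in the platform annotation, 932 several and 9160 none. Symbols were updated for 34741 through RefSeq tables (GRCm38.p6).

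Values were taken as log2(signal + 16), the dimmest 40% left out, and a model with 1 mean per group was estimated over the 14 arrays by limma 3.58.1 (R 4.3.3, eBayes with an intensity trend, two-sided), which leaves 9 residual degrees of freedom. Errors of changes are limma's standard errors, from 1 spread per probe set shared by all groups. A gene is represented by its brightest probe set. Of 133 genes named, 65 had more than 1, and none had another probe set called the opposite way. Other probe sets of the same sign often did not pass. Beyond those given in the report, uncalled probe sets of opposite sign belong to Cdkn1a (-0.27), Psmb8 (0.26), Hk1 (-0.33), Atp7a (-0.10), Id2 (-0.06), H1f2 (-0.63), Ptgs2 (-0.31) and Tlr4 (up to 0.64).

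The comparison, the 24 pathway and 10 marker lists and the settings were chosen with earlier results of these data known. Named were the 12 largest called increases and decreases whose arrays did not overlap and whose higher mean reached the median, up to 4 members per list by smallest p, 10 rise-and-fall and 5 fall-and-rise genes, and 12 preset mediators. Further interferon-stimulated genes, the genes of smaller lists' text outside this rule and marker genes were chosen after their values were seen. Replicate numbers did not pair samples: deviations of same-numbered arrays correlated at 0.054, 0.001 and 0.107 between the 2 doses. Other settings were pseudocounts, filters, scalings, array weights, an actin covariate and single arrays left out. Python 3.11.15, numpy 2.4.6, pandas 2.3.3 and matplotlib 3.10.9 were used.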

Additional observations from a re-analysis of the deposited data

How the results depend on the processing

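Both the choice of arrays, with 3 a dose, and other settings moved the counts. The 1370 calls ranged from 381 (without replicate 2 at 300 mg/kg) to 1738 (without replicate 3 at 100 mg/kg), and were 492 and 732 without replicates 3 and 1 at 200 mg/kg; of 116 called genes named, 48 were called without replicate 2 at 300 mg/kg, 54 without replicate 3 at 200 mg/kg and 41 in every setting. They were 2284 with the actin ratio as a covariate and 1347 with the replicate block, which changed no other count by over 1.5 times except the contrast that sets 200 mg/kg against its neighbours (2). Falling interferon-stimulated genes numbered 21 to 35 with 1 array left out. Rise-and-fall probe sets numbered 4 to 37 with 1 array left out, 28 with array weights, 6 with the actin covariate and 10 with 1 probe set per gene; fall-and-rise ones 4 to 40, 48 with array weights, 2 with the covariate, 19 with no filter and 16 with only the compared arrays. The contrast of 200 mg/kg with its neighbours called 1 to 219 with 1 array left out, 14 with a pseudocount of 64 or no filter, 17 with quantile normalization, 3 with median scaling, 215 with array weights, 6 with 1 probe set per gene, 4 with only the compared arrays and 0 with robust estimation. The sign turned for the 3'/5' ratio with Gapdh in place of actin (-0.27 against 0.40, exact permutation p = 0.7), for Il12b without replicate 2 at 200 mg/kg (0.15; range with 1 array left out -0.39 to 0.15), and for Hmox1 with the covariate (0.08), without replicate 1 at 200 mg/kg (0.03) and without replicate 2 at 300 mg/kg (0.26; range -0.39 to 0.26). The causes were not tested.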

Other observations

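The following groups were put together after their values were seen and carry no test of the group. Of 9 tested interferon receptor and signalling genes 3 fell and none rose, with a median of -0.25. They were Stat2, Irf9, its partner in binding the response element (-1.24 ± 0.257, adjusted p = 0.00832, limma with Benjamini-Hochberg adjustment), and the kinase Jak2 (-0.76 ± 0.176, adjusted p = 0.0172). The receptor chains Ifnar1 (-0.25, adjusted p = 0.554) and Ifnar2 (0.14, 0.652) and the kinases Jak1 (-0.47, 0.148) and Tyk2 (0.60, 0.334) did not pass. Among 10 nucleic-acid sensors and adaptors 6 fell: beside those given above, Cgas, the sensor of cytosolic DNA (-2.72 ± 0.480, adjusted p = 0.00345), and Tlr3, the endosomal sensor of double-stranded RNA (-2.64 ± 0.558, adjusted p = 0.0096). The adaptors Sting1 (-0.01) and Mavs (0.29) did not pass.

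Part of the transcripts of ribosome assembly fell. In the Utp, Nop, Rrp and Polr1 families 11 of 32 tested genes fell, none rose and the others did not pass, with a median of -0.67, beside 3.05% called lower among all probe sets. Nop56, a core protein of box C/D small nucleolar particles, changed by -1.06 ± 0.166 (adjusted p = 0.00216) and Rrp1b by -1.31 ± 0.209 (adjusted p = 0.00224). Of 15 histone genes 3 rose and none fell, with a median of 0.29, beside 2.02% called higher among all probe sets. They were H1f2, a linker histone (1.55 ± 0.269, adjusted p = 0.00305, with another probe set at -0.63 that did not pass), H2bc21 (1.15 ± 0.288, adjusted p = 0.0258) and H2bc18, whose signals at 200 mg/kg were near the bottom of the range.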
